A study of Homo sapiens with 14 samples.

Results

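The genes examined were 10 tubulin genes, namely TUBA1A, TUBA1B, TUBA1C and TUBA4A for alpha-tubulin, TUBB, TUBB2A, TUBB2B, TUBB3 and TUBB6 for beta-tubulin, and TUBG1 for gamma-tubulin. They were chosen by symbol, with earlier results of these data known. All 10 were found among the 26732 genes listed for both cell lines, and all 10 passed the filter on low counts in each line. mRNA levels came from RNA sequencing of A549 and H1792, which are established lines of human lung adenocarcinoma. Cells were seeded in dishes and treated the next day with DMSO alone or with 0.1 µM AMG900, which inhibits all aurora kinases, and were collected 48 h later. There were 4 DMSO and 4 AMG900 libraries of A549, grown in DMEM, and 3 of each of H1792, grown in RPMI 1640. Neither line carried an added allele or a further agent by the labels. Each line is a single cell line, so a difference between them is a difference between 2 lines and not between classes of tumours. The protocol speaks of 3 replicates per treatment while 4 are listed for A549, and p-values measure the spread between these libraries, which may in part be technical.

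Alpha- and beta-tubulin join into the dimer from which microtubules are built, and gamma-tubulin, within a ring complex, nucleates microtubules at the centrosome and in the spindle. The human genome holds several genes for each kind, and the proteins they encode differ mainly in their C-terminal tails. Cells adjust tubulin mRNA to the pool of free dimer, since a surplus of dimer triggers decay of tubulin mRNA while it is being translated. Aurora kinases act in mitosis on centrosomes, the spindle and cytokinesis.

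TUBA1A, TUBA1B and TUBA1C lie close together on chromosome 12 in the GENCODE annotation of GRCh37. TUBA1B spans chr12:49521565-49525180 and TUBA1A chr12:49578469-49582863, both on the minus strand, and TUBA1C spans chr12:49582519-49668383 on the plus strand and overlaps the start of TUBA1A. TUBB2A (chr6:3153731-3157778) and TUBB2B (chr6:3223558-3231964) are neighbours on the minus strand of chromosome 6, and TUBB lies on the same chromosome at chr6:30685212-30693315. TUBA4A is at chr2:220114432-220142624, TUBB3 at chr16:89987800-90005169, TUBB6 at chr18:12307668-12344319 and TUBG1 at chr17:40761659-40767256. Counts were made over whole genes, so no value below belongs to a single exon or UTR.

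Several of these genes are near copies of each other. Coding sequences were 97.2% identical between TUBA1A and TUBA1B, 96.8% between TUBA1B and TUBA1C, 95.9% between TUBA1A and TUBA1C, and 98.1% between TUBB2A and TUBB2B. Of all 50-base windows of the representative transcript, the share also found in transcripts of other genes was 62.7% for TUBA1B, 47.3% for TUBA1A and 26.7% for TUBA1C. It was 64.6% for TUBB2A, 54.9% for TUBB2B, 19.3% for TUBB, 30.0% for TUBG1, 5.55% for TUBA4A and 1.09% for TUBB6. For TUBB3 the share was 92.8%, through a read-through gene annotated over it. How reads that fit several genes were counted, and whether strand was used, is not given in the sources used here. The split of reads among TUBA1A, TUBA1B and TUBA1C, between TUBB2A and TUBB2B, and between TUBB3 and its read-through gene, is thus uncertain. So is that between TUBG1 and TUBG2, a gene outside the set that held 29.1% of the TUBG1 windows.

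The 3 chromosome 12 genes have nearly identical coding sequences, and the sequences before their starts are shown because they tell the near copies apart. That of TUBB4B, a beta-tubulin gene outside the set, is shown beside them because TUBB4B was lower in A549 and higher in H1792. Each is the 250 bases before the start, from RefSeq on GRCh38.p14, 5′ to 3′ on the gene's strand, and the 4 windows were chosen with the responses known. The TUBA1C window belongs to 1 of 3 RefSeq starts of that gene, the one at which its representative transcript begins, and not to the start of the longer gene span given above. Capitals mark the letters CCAAT, the NF-Y box, and TTTGAA, the core of the cell cycle homology region found in many late cell cycle promoters, on either strand.
TUBA1A, chr12:49189081-49189330, minus strand: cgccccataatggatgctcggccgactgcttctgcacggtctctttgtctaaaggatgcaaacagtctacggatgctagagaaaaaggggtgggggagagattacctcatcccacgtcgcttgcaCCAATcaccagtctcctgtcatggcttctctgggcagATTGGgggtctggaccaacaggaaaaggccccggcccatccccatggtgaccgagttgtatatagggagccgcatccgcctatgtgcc
TUBA1B, chr12:49131396-49131645, minus strand: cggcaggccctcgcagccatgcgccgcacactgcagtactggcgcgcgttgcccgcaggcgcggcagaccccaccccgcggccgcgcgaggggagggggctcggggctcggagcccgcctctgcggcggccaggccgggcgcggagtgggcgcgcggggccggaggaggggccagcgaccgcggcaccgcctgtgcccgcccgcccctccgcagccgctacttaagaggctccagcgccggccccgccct
TUBA1C, chr12:49264832-49265081, plus strand: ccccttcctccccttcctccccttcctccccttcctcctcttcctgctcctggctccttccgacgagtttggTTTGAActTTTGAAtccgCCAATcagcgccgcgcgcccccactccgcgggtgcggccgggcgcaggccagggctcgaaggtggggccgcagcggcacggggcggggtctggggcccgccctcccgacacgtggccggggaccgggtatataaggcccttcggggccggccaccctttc
TUBB4B, chr9:137241037-137241286, plus strand: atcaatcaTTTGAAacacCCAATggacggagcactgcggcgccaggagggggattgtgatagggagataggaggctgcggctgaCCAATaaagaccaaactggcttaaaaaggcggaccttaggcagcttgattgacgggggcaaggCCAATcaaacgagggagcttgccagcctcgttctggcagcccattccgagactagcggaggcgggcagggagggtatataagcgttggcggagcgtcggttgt
The TUBA1C window held 1 CCAAT and 2 TTTGAA, and the TUBB4B window 3 CCAAT and 1 TTTGAA. The TUBA1A window held 2 CCAAT and no TTTGAA, and the TUBA1B window held neither of them. Among 35116 RefSeq windows of this length, 32.0% held CCAAT, 13.3% held TTTGAA and 4.69% held both. Of the windows of the other 7 tubulin genes, none held TTTGAA and 5 held CCAAT. Among these 7 were TUBA4A and TUBG1, which like TUBA1C were lower in A549 and higher in H1792. The TUBG1 window held 1 CCAAT and the TUBA4A window 0. These matches are letters in a window and not sites shown to be bound, and their part in the responses was not tested.

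Total counts ranged from 4254644 to 18962883 in A549 and from 42810734 to 79984064 in H1792, so values in H1792 rest on more reads. Replicates varied with a biological coefficient of variation of 12.8% (A549) and 9.60% (H1792). A549 DMSO replicate 1 had the fewest counts and stood apart from its group. The tests of the 10 tubulin genes are given with and without it, and further values without it, computed after the data were seen, stand beside the results they touch. KRT8 and KRT18, keratins of simple epithelia, were abundant in both lines, but EPCAM was near 0 in A549 DMSO libraries (0.301 ± 0.227 CPM, which is counts per 1000000 after scaling, SD, n = 4) and CDH1 was low in H1792 DMSO libraries (0.681 ± 0.0961 CPM, SD, n = 3). The 5 epithelial markers summed to 4473 to 5653 CPM in A549 DMSO (4473 to 4731 without DMSO replicate 1), 6106 to 6878 in A549 AMG900, 659 to 819 in H1792 DMSO and 818 to 830 in H1792 AMG900. With AMG900 all 4 tested in A549 were higher, led by KRT19 at 1.58 (adjusted p = 3.7e-07), and 1 of 5 was higher in H1792, KRT19 at 0.54 (adjusted p = 0.00279). Of 5 blood and endothelial markers, the sum ranged from 0 to 0.0910 CPM in A549 DMSO, 0.194 to 0.567 in A549 AMG900, 3.88 to 5.73 in H1792 DMSO and 7.81 to 9.03 in H1792 AMG900, mostly PECAM1, and the T cell gene CD3E had 1 count at most. With AMG900, 2 of the 3 blood and endothelial markers tested in H1792 were higher, and none could be tested in A549. The 8 neuronal markers were listed because TUBB3 is also a neuronal gene. They summed to 33.0 to 51.7 CPM in A549 DMSO and 64.0 to 73.0 in A549 AMG900. In H1792 the sum was 7.23 to 8.50 with DMSO and 10.3 to 11.0 with AMG900. RBFOX3 and NEFL, 2 of 4 tested, were higher with AMG900 in A549, and 1 of 6 was higher in H1792. Mean RBFOX3 in A549 was 0.731 CPM with DMSO and 7.86 with AMG900, and mean NEFL 15.5 and 38.4. STMN2 was 0 in every A549 library. The part of these markers in the tubulin results was not tested. In bulk RNA, fewer cells of a kind and less RNA per cell cannot be told apart.

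In A549 cells, 8 of the 10 tubulin genes were lower with AMG900 and none was higher. TUBA1B, the most abundant of them, fell furthest, followed by TUBB and TUBA1C. TUBA1A, TUBA4A, TUBB2A, TUBB3 and TUBG1 fell by smaller amounts, and TUBB2B and TUBB6 did not pass the test. Across all 13174 genes tested in A549, 17.8% were lower and 17.2% higher at a false discovery rate (FDR) below 0.01. The median log2 fold change was -0.57 over the tubulin genes and -0.01 over all genes. The CPM of the 10 genes summed to 5076 ± 319 with DMSO (SD, n = 4) and to 2549 ± 62.7 with AMG900 (SD, n = 4). Without DMSO replicate 1 the DMSO sum was 5235 ± 32.3 CPM (SD, n = 3).

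**Figure D1:**
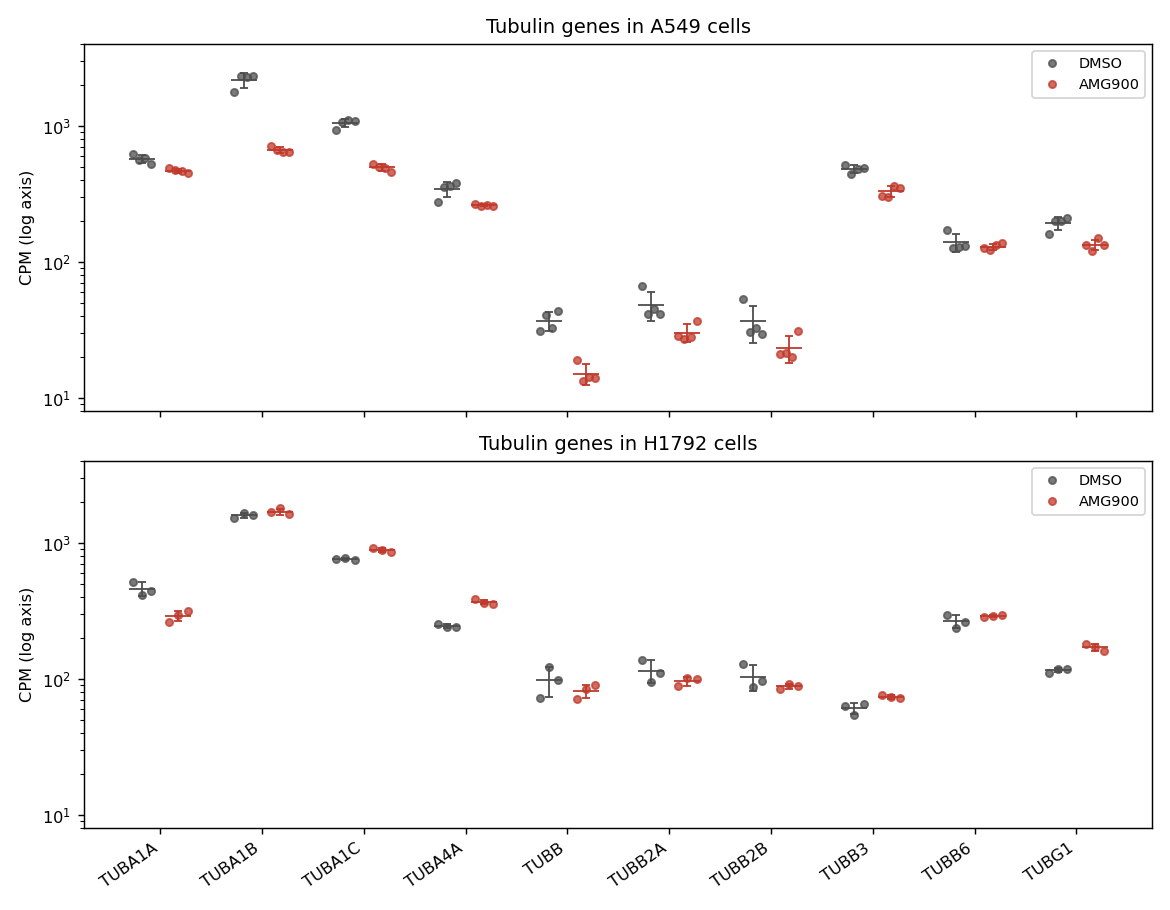
Level of each tubulin gene in every library, in CPM (log axis) scaled within each cell line, with DMSO in grey and AMG900 in red; horizontal bars and whiskers give the group mean and SD. In A549 the AMG900 points lie below all DMSO points for 8 genes, and in H1792 TUBA1C, TUBA4A, TUBB3 and TUBG1 lie above and TUBA1A below.

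Among the alpha-tubulin genes in A549, TUBA1B measured 1763, 2339, 2292 and 2322 CPM in DMSO replicates 1 to 4 and 715, 663, 640 and 640 CPM in AMG900 replicates 1 to 4. The groups were far apart, with DMSO replicate 1 the lowest of its group. TUBA1B fell by 1.71 on the log2 scale (SE 0.09, adjusted p = 1.1e-09, edgeR quasi-likelihood test), to 0.305 of its DMSO level, and only 2.25% of tested genes had a lower log2 fold change. TUBA1C measured 939, 1066, 1095 and 1094 CPM with DMSO and 528, 496, 492 and 460 CPM with AMG900. It fell by 1.09 (SE 0.07, adjusted p = 1.3e-08), to 0.471 of its DMSO level, again with no overlap. TUBA1A, whose protein is best known from developing neurons, changed less, from 572 ± 43.0 CPM (SD, n = 4) to 468 ± 15.7 CPM (SD, n = 4). Its fall of 0.29 (SE 0.07, adjusted p = 0.00264) passed narrowly: over 15 alternatives the log2 fold change stayed between -0.38 and -0.25, and the adjusted p lay just above the threshold in 2, at 0.0110 without AMG900 replicate 3 and 0.0105 without DMSO replicate 3. TUBA4A, which unlike most alpha-tubulins is encoded without a C-terminal tyrosine, measured 277, 352, 361 and 381 CPM with DMSO and 256 to 265 CPM with AMG900. TUBA4A fell by 0.40 (SE 0.09, adjusted p = 0.00146), and its lowest DMSO library, replicate 1, lay just above the AMG900 group. In the uncertain split among the near copies, the sum of TUBA1A, TUBA1B and TUBA1C depends less on that split than each gene does, and it went from 3800 ± 316 CPM (SD, n = 4) to 1627 ± 76.9 CPM (SD, n = 4).

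Among the beta-tubulin genes in A549, TUBB, a widely expressed isotype, measured 30.8, 40.7, 32.5 and 43.2 CPM with DMSO and 19.0, 13.2, 14.1 and 13.9 CPM with AMG900. TUBB fell by 1.31 (SE 0.15, adjusted p = 4.6e-06), to 0.403 of its DMSO level. TUBB3, an isotype of neurons that many carcinomas also express, measured 514, 439, 480 and 486 CPM with DMSO and 307, 300, 361 and 348 CPM with AMG900. Every AMG900 library lay below every DMSO library, and TUBB3 fell by 0.54 (SE 0.08, adjusted p = 4.8e-05). TUBB2A measured 66.0, 41.4, 45.1 and 41.2 CPM with DMSO and 28.4, 27.1, 28.0 and 36.8 CPM with AMG900. It fell by 0.66 (SE 0.15, adjusted p = 0.00231), but the adjusted p was 0.0112 without AMG900 replicate 2 and 0.0110 without AMG900 replicate 3. TUBB2B, its near copy, measured 52.9, 30.5, 32.6 and 29.6 CPM with DMSO and 21.0, 21.3, 20.0 and 30.8 CPM with AMG900. Its groups overlapped through AMG900 replicate 4, and its log2 fold change of -0.61 (SE 0.18) had adjusted p = 0.0138. TUBB6, a further beta-tubulin isotype, measured 172, 126, 128 and 131 CPM with DMSO against 126, 122, 132 and 137 CPM with AMG900, a log2 fold change of -0.10 (SE 0.10, adjusted p = 0.424).

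TUBG1, the main gamma-tubulin gene of dividing cells, measured 160, 201, 200 and 209 CPM with DMSO and 134, 121, 149 and 133 CPM with AMG900 in A549. It fell by 0.52 (SE 0.09, adjusted p = 2.8e-04) without overlap. For 8 of the 10 genes the groups did not overlap in A549, against 43.9% of all genes.

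DMSO replicate 1 was the highest of its group for TUBA1A, TUBB2A, TUBB2B, TUBB3 and TUBB6 and the lowest for TUBA1B, TUBA1C, TUBA4A, TUBB and TUBG1. Without it, TUBA1B fell by 1.80, TUBA1C by 1.14, TUBB by 1.38, TUBG1 by 0.60, TUBB3 by 0.51, TUBB2A by 0.50, TUBA4A by 0.49 and TUBA1A by 0.25, all still past the threshold. Without it TUBB2B also passed, with a log2 fold change of -0.41 (adjusted p = 0.00914), and TUBB6 stood at 0.01 (adjusted p = 0.908). Over all tested genes, transcripts richer in GC tended to have higher log2 fold changes (Spearman 0.496 in A549 and 0.479 in H1792, across genes, which are not independent), and the tubulin transcripts have 50.2% to 62.2% GC. With a correction for GC content all 10 genes were lower in A549, as were 2470 of all 13174 genes tested. TUBB2B stood at -0.87 (adjusted p = 0.00138) and TUBB6 at -0.39 (adjusted p = 0.00375), and the fall of TUBB3 was 0.97.

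In H1792 cells the same dose and time gave another picture: 3 of the 10 genes were higher, 1 was lower and 6 did not pass the test. TUBA4A, TUBG1 and TUBA1C rose and TUBA1A fell. Across all 15017 genes tested in H1792, 16.2% were higher and 18.8% lower. The tubulin genes had a median log2 fold change of 0.11, against 0.01 over all genes. Their summed CPM was 3835 ± 50.8 with DMSO (SD, n = 3) and 4052 ± 102 with AMG900 (SD, n = 3).

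TUBA4A measured 254, 241 and 242 CPM in H1792 DMSO replicates 1 to 3 and 385, 364 and 357 CPM in AMG900 replicates 1 to 3. It rose by 0.59 (SE 0.05, adjusted p = 1.5e-05), to 1.50 times its DMSO level. TUBG1 measured 111, 118 and 118 CPM with DMSO and 181, 173 and 161 CPM with AMG900, and rose by 0.57 (SE 0.06, adjusted p = 3.8e-05). Both genes lay above DMSO in every AMG900 library, and with the GC correction they rose by 0.37 and 0.30, still past the threshold. TUBA1C measured 769, 780 and 755 CPM with DMSO and 915, 893 and 859 CPM with AMG900. Its rise of 0.21 (SE 0.05, adjusted p = 0.00381) did not overlap either, but it had adjusted p = 0.0245 without AMG900 replicate 1, 0.0284 without AMG900 replicate 2 and 0.0305 without DMSO replicate 3. It missed the threshold as well with scaling by total counts (adjusted p = 0.0199). TUBA1A measured 521, 417 and 445 CPM with DMSO and 264, 297 and 316 CPM with AMG900. TUBA1A fell by 0.66 (SE 0.09, adjusted p = 1.7e-04), to 0.633 of its DMSO level, with every AMG900 library below every DMSO library.

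TUBA1B, which fell furthest in A549, measured 1541, 1667 and 1601 CPM with DMSO and 1680, 1796 and 1625 CPM with AMG900 in H1792. The groups overlapped and the log2 fold change was 0.09 (SE 0.05, adjusted p = 0.213), or -0.06 with the GC correction. TUBB3 measured 62.8, 54.7 and 66.0 CPM with DMSO and 75.8, 73.5 and 71.9 CPM with AMG900. Its groups did not overlap, yet the log2 fold change of 0.27 (SE 0.07) had adjusted p = 0.0101, just outside the threshold, and was -0.07 with the GC correction. TUBB measured 73.1, 122 and 97.8 CPM with DMSO against 71.6, 84.2 and 89.7 CPM with AMG900, a log2 fold change of -0.25 (SE 0.15, adjusted p = 0.190). TUBB2A stood at -0.26 (adjusted p = 0.0886), TUBB2B at -0.25 (adjusted p = 0.108) and TUBB6 at 0.14 (adjusted p = 0.134). DMSO replicates 1 and 2 held the extremes of TUBB, TUBB2A, TUBB2B and TUBB6. Without DMSO replicate 1, TUBB was lower by 0.45 (adjusted p = 6.7e-04), and TUBB6 and TUBB3 were higher at 0.20 (adjusted p = 0.00245) and 0.27 (adjusted p = 0.00281). Without DMSO replicate 2, TUBB2A was at -0.38 (adjusted p = 0.00472) and TUBB2B at -0.37 (adjusted p = 0.00698). With the GC correction TUBB2A and TUBB2B were lower too, at -0.55 (adjusted p = 3.9e-04) and -0.48 (adjusted p = 0.00177). For 5 of the 10 genes the groups did not overlap in H1792, against 59.7% of all genes.

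**Figure D2:**
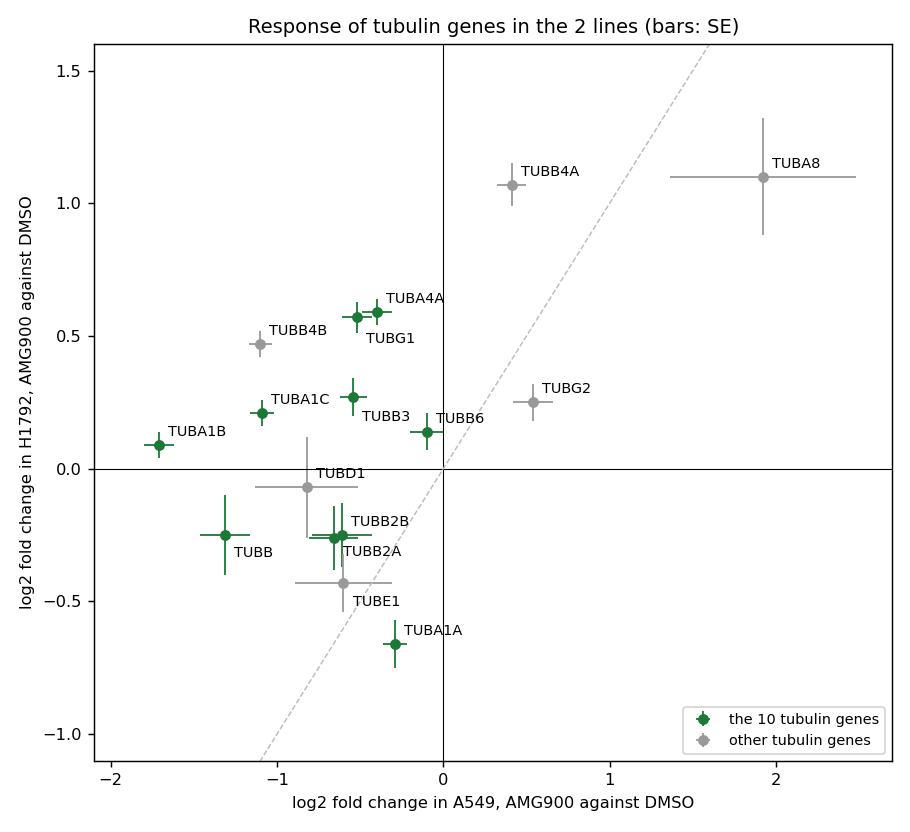
Log2 fold change of AMG900 against DMSO in A549 (horizontal axis) and in H1792 (vertical axis) for the 10 tubulin genes (green) and the other tubulin genes tested in both lines (grey), with SE bars and a dashed line of equal response. TUBA1B, TUBA1C, TUBB, TUBA4A, TUBB3 and TUBG1 lie above the dashed line and TUBA1A lies below it, each with a called difference between the cell lines. TUBB2A, TUBB2B and TUBB6 also lie above it, without a called difference.

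Whether the lines responded differently was tested directly, by a line-by-treatment interaction fitted to all 14 libraries. The AMG900 effect in H1792 exceeded that in A549 for 6 of the 10 genes, against 5.37% of the 14769 genes tested, and was below it for 1, against 9.17%. TUBA1B differed most, by 1.72 (SE 0.12, adjusted p = 1.9e-09), followed by TUBA1C at 1.22 (SE 0.09, adjusted p = 6.4e-09). The other 4 were TUBG1 at 1.02 (adjusted p = 5.2e-06), TUBB at 1.00 (adjusted p = 0.00260), TUBA4A at 0.91 (adjusted p = 1.1e-05) and TUBB3 at 0.73 (adjusted p = 1.0e-04). These 6 differences kept their call in every alternative run except the 2-fold threshold, which TUBA4A, TUBB and TUBB3 did not meet. TUBA1A went the other way, since it fell in both lines but more in H1792, with a difference of -0.45 (SE 0.11, adjusted p = 0.00621). Its adjusted p was up to 0.0293 among 21 alternative fits and missed the threshold in 14 of them, while the direction was the same in each. TUBB2A (0.31, adjusted p = 0.298), TUBB2B (0.26, adjusted p = 0.471) and TUBB6 (0.15, adjusted p = 0.422) were not shown to differ.

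Set side by side, 3 genes (TUBA1C, TUBA4A and TUBG1) were lower in A549 and higher in H1792, against 0.673% of the 12625 genes tested in both lines. TUBA1A was the 1 gene of the set lower in both, against 9.31% of all genes. The 4 genes TUBA1B, TUBB, TUBB2A and TUBB3 were lower in A549 with no call in H1792, as were 8.32% of all genes, and TUBB2B and TUBB6 had no call in either line, as had 44.9%.

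As counted, the makeup of tubulin mRNA changed as well, but the shares and ratio below rest on the uncertain split among TUBA1A, TUBA1B and TUBA1C. Per kb of transcript, TUBA1B made up 60.1% ± 2.62 (SD, n = 4) of the 4 alpha-tubulin genes in A549 DMSO libraries and 41.2% ± 0.599 (SD, n = 4) with AMG900. The share of TUBA1A went from 15.6% ± 2.62 (SD, n = 4) to 28.3% ± 0.283 (SD, n = 4), and that of TUBA4A from 7.51% ± 0.428 (SD, n = 4) to 12.8% ± 0.430 (SD, n = 4). The TUBA1C share differed little, at 16.8% ± 0.424 (SD, n = 4) and 17.7% ± 0.383 (SD, n = 4). In H1792 the TUBA1B share was 59.6% ± 2.16 (SD, n = 3) with DMSO and 60.9% ± 1.13 (SD, n = 3) with AMG900, and the ranges overlapped. There the TUBA1A share went down from 16.7% ± 1.97 (SD, n = 3) to 10.2% ± 1.05 (SD, n = 3). The same change appears as a ratio of counts, since reads on TUBA1B outnumbered those on TUBA1A 2.82- to 4.46-fold in A549 DMSO libraries and 1.39- to 1.46-fold with AMG900. Without A549 DMSO replicate 1, the DMSO shares were 61.4% ± 0.631 for TUBA1B and 14.3% ± 0.770 for TUBA1A (SD, n = 3), and the ratio was 3.94 to 4.46. In H1792 the ratio moved the opposite way, from 2.96 to 4.0 with DMSO to 5.15 to 6.37 with AMG900.

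Among 7 beta-tubulin genes, the 5 of the set with TUBB4A and TUBB4B, TUBB4B held the largest share per kb in both lines. In A549 it went from 52.9% ± 3.54 (SD, n = 4) to 41.6% ± 1.06 (SD, n = 4), while TUBB3 went from 30.6% ± 1.39 (SD, n = 4) to 35.5% ± 1.25 (SD, n = 4) and TUBB6 from 8.07% ± 1.19 (SD, n = 4) to 12.7% ± 0.248 (SD, n = 4). In A549 TUBB3 and TUBB6 thus gained share while TUBB3 fell in level and TUBB6 was not called. In H1792 the TUBB4B share went up from 63.2% ± 2.41 (SD, n = 3) to 70.3% ± 1.04 (SD, n = 3), and TUBB3 was at 3.82% ± 0.296 (SD, n = 3) and 3.70% ± 0.0806 (SD, n = 3). Without A549 DMSO replicate 1 the DMSO shares there were 54.6% ± 0.489 for TUBB4B, 30.0% ± 0.789 for TUBB3 and 7.47% ± 0.119 for TUBB6 (SD, n = 3). These shares are descriptions, rest on the uncertain splits of reads given above, and were not tested.

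**Figure D3:**
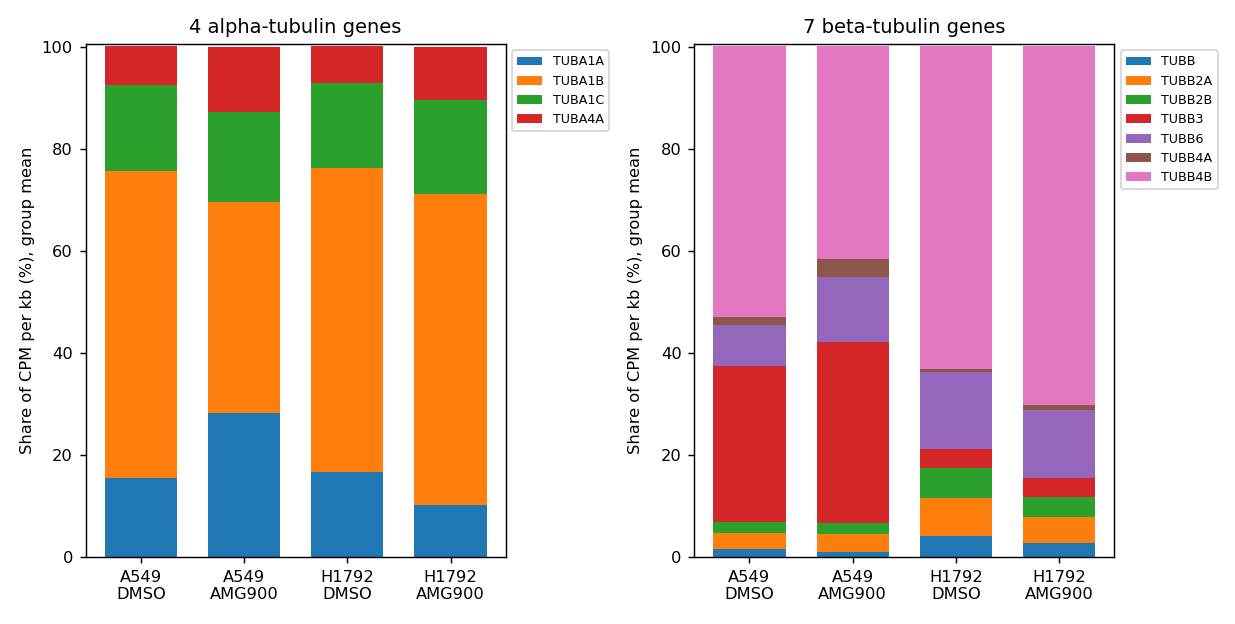
Mean share of each gene (percent of summed CPM per kb) among 4 alpha-tubulin genes (left) and 7 beta-tubulin genes (right) in the 4 groups. The TUBA1B segment shrinks from 60.1% to 41.2% in A549 with AMG900 and is 59.6% and 60.9% in H1792. Shares are as counted, with the split among near copies uncertain.

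The DMSO libraries of the 2 lines differed in their tubulin genes before any AMG900. Of the 10 genes, 4 were higher in H1792 (34.2% of all genes were) and 5 were lower (31.9% of all genes were), and line, medium, sequencing depth and table cannot be told apart in this comparison. TUBB3 differed most, at 62.7 ± 6.00 CPM in H1792 (SD, n = 3) and 458 ± 30.4 CPM in A549 (SD, n = 4) on a scale common to both lines, a log2 difference of -2.87 (SE 0.09, adjusted p = 6.4e-16). TUBB3 counts share the doubt about its read-through gene given above. The other 4 beta-tubulin genes of the set went the opposite way. TUBB2B was higher in H1792 by 1.68 (SE 0.17, adjusted p = 4.0e-08), TUBB by 1.48 (SE 0.15, adjusted p = 4.2e-08), TUBB2A by 1.38 (SE 0.15, adjusted p = 6.3e-08) and TUBB6 by 1.04 (SE 0.09, adjusted p = 5.1e-09). Alpha- and gamma-tubulin genes were modestly lower in H1792. TUBG1 was at -0.65 (adjusted p = 2.2e-06), TUBA4A at -0.39 (adjusted p = 3.9e-04), TUBA1C at -0.35 (adjusted p = 7.1e-05) and TUBA1B at -0.35 (adjusted p = 0.00108), while TUBA1A, at -0.21 (adjusted p = 0.0234), was not called. Outside the set, TUBB4A was lower in H1792, as TUBB3 was, at -1.36 (adjusted p = 2.8e-11), and TUBB4B was higher at 0.39 (adjusted p = 1.2e-05). The TUBA1B call was lost without H1792 DMSO replicate 1 (-0.26, adjusted p = 0.0242), and without that library TUBA1A was called (-0.25, adjusted p = 0.00879). Without A549 DMSO replicate 1 the 9 calls held, with TUBB3 at -2.84 and TUBB2B at 1.85.

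Per kb, TUBA1B led in both lines, at 1339 ± 171 CPM per kb (SD, n = 4) in A549 DMSO and 985 ± 38.9 (SD, n = 3) in H1792 DMSO. In A549 it was followed by TUBA1C (371 ± 26.3), TUBA1A (342 ± 25.7), TUBB3 (281 ± 18.1), TUBA4A (167 ± 22.3) and TUBG1 (120 ± 13.7), all SD over 4 libraries. TUBB6 (74.1 ± 11.6), TUBB2A (30.0 ± 7.34), TUBB2B (18.9 ± 5.76) and TUBB (14.6 ± 2.42) came last, likewise in CPM per kb with SD over 4 libraries. The ranges of TUBA1C and TUBA1A overlapped in A549 DMSO, as did those of TUBB2A and TUBB2B and of TUBB2B and TUBB, and the other neighbours were apart. In H1792 DMSO the order was TUBA1B, TUBA1A (276 ± 32.2), TUBA1C (272 ± 4.36), TUBB6 (141 ± 15.2), TUBA4A (120 ± 3.44) and TUBG1 (71.9 ± 2.67), with SD over 3 libraries. TUBB2A (71.0 ± 13.7), TUBB2B (54.3 ± 11.3), TUBB (38.8 ± 9.66) and TUBB3 (35.9 ± 3.39) closed it, so TUBB3 was the fourth in A549 and the last in H1792. Ranges overlapped in H1792 between TUBA1A and TUBA1C, TUBG1 and TUBB2A, TUBB2A and TUBB2B, TUBB2B and TUBB, and TUBB and TUBB3. Both orders rest on the uncertain splits of reads given above, that of TUBB included.

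**Figure D4:**
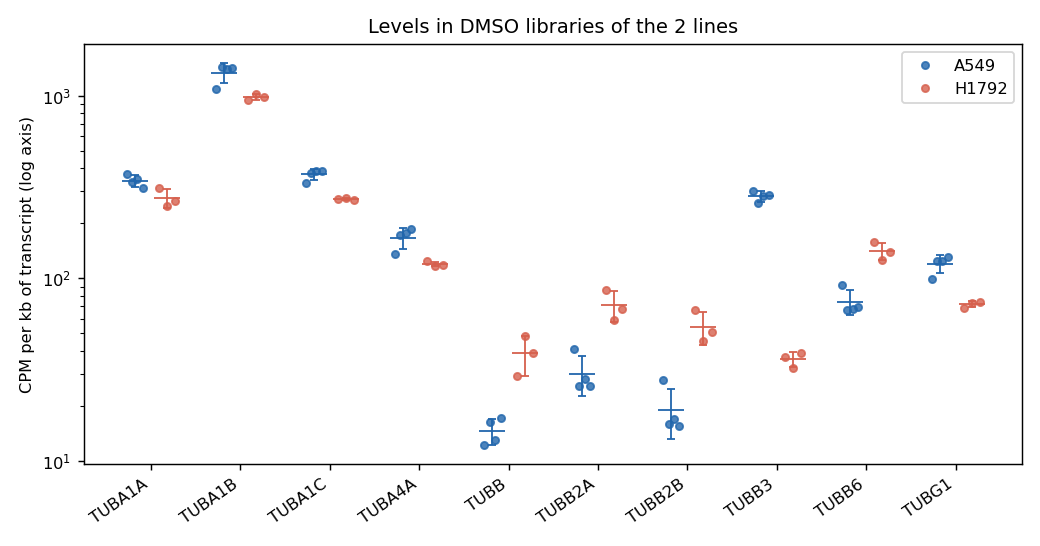
Level of each tubulin gene in the DMSO libraries, as CPM per kb of transcript (log axis) scaled within each line, with A549 in blue and H1792 in orange; bars and whiskers give mean and SD. TUBB3 stands at 281 in A549 and 35.9 in H1792, and TUBB, TUBB2A, TUBB2B and TUBB6 are higher in H1792.

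Of the 12 other tubulin genes, TUBB4B was lower in A549 and higher in H1792, as TUBA1C was. TUBB4B, a widely expressed beta-tubulin, measured 690, 763, 789 and 791 CPM with DMSO and 345, 340, 370 and 358 CPM with AMG900 in A549, and fell by 1.10 (SE 0.07, adjusted p = 6.1e-09). In H1792 it measured 914, 930 and 936 CPM with DMSO and 1307, 1295 and 1247 CPM with AMG900, and rose by 0.47 (SE 0.05, adjusted p = 2.5e-05). Its line-by-treatment interaction was 1.50 (SE 0.09, adjusted p = 1.8e-10). TUBB4A, an isotype of nervous tissue, rose in both lines, by 0.41 in A549 (adjusted p = 0.00141) and by 1.07 in H1792 (adjusted p = 4.2e-06). TUBG2, the second gamma-tubulin gene, rose by 0.54 in A549 (adjusted p = 0.00230), where TUBG1 fell. It rose by 0.25 in H1792 (adjusted p = 0.00948), where TUBG1 rose too. TUBA8 was low, at 0.254 and 1.26 CPM in A549 DMSO and AMG900 (log2 fold change 1.92, adjusted p = 0.0109), and rose by 1.10 in H1792 (adjusted p = 0.00192). TUBE1, for epsilon-tubulin of centrioles, fell by 0.43 in H1792 (adjusted p = 0.00981) and stood at -0.60 in A549 (adjusted p = 0.0964). TUBD1, for delta-tubulin, had no call in either line, nor had TUBAL3 in H1792, and TUBA3C, TUBA3D, TUBA3E, TUBB1 and TUBB8 were too low to test in both lines. In all, 2 of 6 tested were higher and 1 lower in A549, and 4 of 7 higher and 1 lower in H1792. Calls of genes outside the set, here and in all other lists, are given without the GC correction. How far these calls depend on GC content was not tested.

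Genes whose products act on tubulin were examined in 4 lists. Their counts, and those of the other tubulin genes, stand beside the shares over all genes tested. The calls in these lists are likewise without the GC correction. In A549 17.2% of all genes were higher and 17.8% lower, and in H1792 16.2% were higher and 18.8% lower. Of 9 genes of the gamma-tubulin ring complex, which TUBG1 needs to nucleate microtubules, 5 were lower and none higher in A549, from TUBGCP3 at -1.26 (adjusted p = 3.3e-06) to TUBGCP5 at -0.66 (adjusted p = 3.2e-04), with a list median of -0.66. In H1792, 3 were higher and 2 lower, with TUBGCP2 at 0.34 (adjusted p = 2.1e-04) and the recruiting factor NEDD1 at -1.51 (adjusted p = 1.4e-04) at the ends. Of 21 genes that fold tubulin (prefoldin, the CCT chaperonin and tubulin cofactors), 2 were higher and 8 lower in A549, and 2 higher and 5 lower in H1792. The ends in A549 were ARL2, a GTPase that works with the cofactors, at 0.42 (adjusted p = 0.00292) and the chaperonin subunit CCT4 at -0.96 (adjusted p = 0.00671). In H1792 they were the prefoldin subunits PFDN1 at 0.42 (adjusted p = 1.4e-04) and VBP1 at -1.15 (adjusted p = 2.0e-05). The list medians were -0.28 in A549 and -0.08 in H1792. Without A549 DMSO replicate 1, CCT4 stood at -0.51 (adjusted p = 7.3e-05), 3 folding genes were higher and 10 lower, and 2 ring complex genes, MZT2A and MZT2B, were higher.

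Of the 3 genes of tubulin mRNA autoregulation, TTC5, which recognises nascent tubulin, was not called in A549 (-0.15, adjusted p = 0.383) or H1792 (-0.26, adjusted p = 0.0110). SCAPER, the adaptor that links TTC5 to mRNA decay, fell by 0.61 in A549 (adjusted p = 0.00796) and rose by 0.57 in H1792 (adjusted p = 0.00127), with a difference between the lines of 1.10 (adjusted p = 4.4e-04). CNOT11, a subunit of the deadenylase that SCAPER binds, fell by 0.33 in H1792 (adjusted p = 0.00100) and was at -0.22 in A549 (adjusted p = 0.0610). Of 20 genes listed for the modification of tubulin tails and lysines, not all of them enzymes, 4 of 16 tested were higher and 1 lower in A549. In H1792, 3 of 18 tested were higher and 2 lower. The ends were TTLL6 at 1.34 (adjusted p = 0.00451) and TTLL12 at -0.64 (adjusted p = 8.1e-05) in A549, and the deacetylase SIRT2 at 0.41 (adjusted p = 2.5e-04) and the deglutamylase AGTPBP1 at -1.09 (adjusted p = 0.00518) in H1792. Without A549 DMSO replicate 1, 6 of 17 tested genes of this list were higher and 3 lower in A549, with TTLL6 at 1.12 (adjusted p = 2.3e-04). Over the related genes and marker genes tested in A549 with and without that library, 40 calls held, none was lost and 9 were gained. Of all 13452 genes tested in A549 without that library, 2876 were higher and 2978 lower.

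Mitotic genes changed more than the tubulin genes in A549. All 10 mitotic genes listed (MKI67, TOP2A, CCNB1, CCNB2, CDK1, CDC20, PLK1, UBE2C, BUB1 and CENPF) were lower in A549, between CCNB1 at -2.71 (adjusted p = 2.4e-10) and CDK1 at -3.61 (adjusted p = 2.7e-07), with a median of -3.17. Their summed level went from 1356 to 1547 CPM with DMSO to 151 to 160 CPM with AMG900 in A549, and from 1641 to 1723 CPM to 1778 to 1823 CPM in H1792. In H1792, 2 of the 10 were higher and 1 lower, with UBE2C at 0.37 (adjusted p = 1.8e-04) and CDK1 at -0.57 (adjusted p = 7.1e-04) at the ends and a median of 0.01. Among the 10 tubulin genes the largest change in A549, that of TUBA1B, was smaller than that of any of these mitotic genes. The part of the mitotic genes in the tubulin results was not tested.

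**Figure D5:**
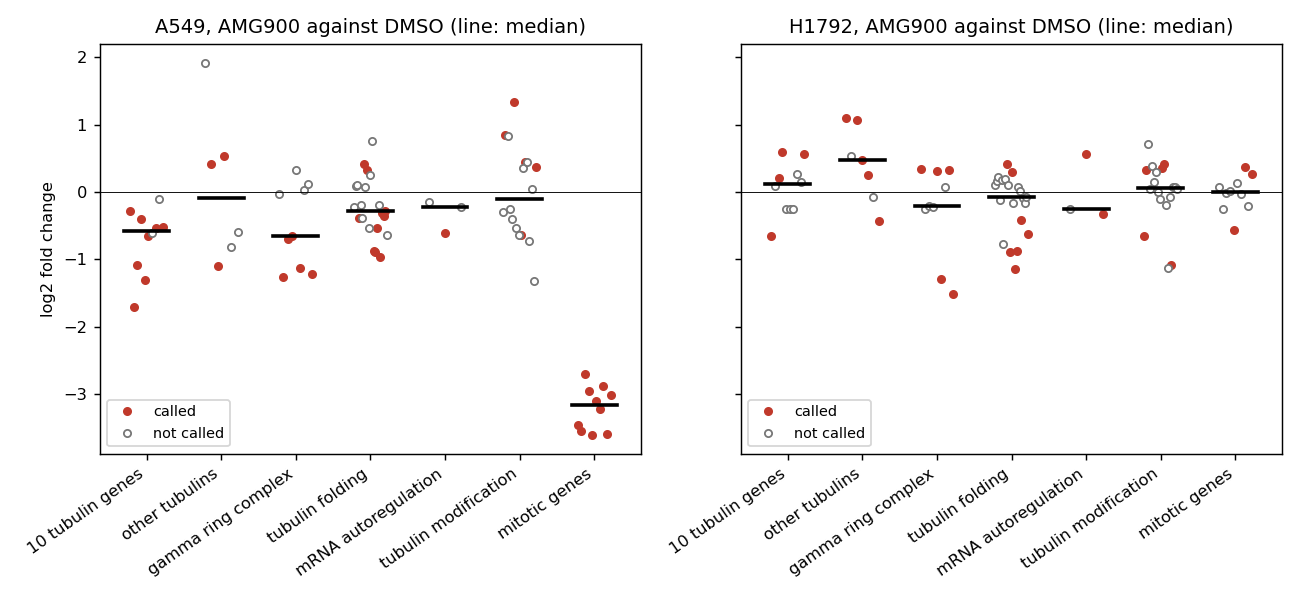
Log2 fold change of AMG900 against DMSO for the tubulin genes and for lists of related genes in A549 (left) and H1792 (right); each point is a gene, filled red where it passed the test and open grey where it did not, and the black line is the list median. In A549 the mitotic genes lie between -3.61 and -2.71, below the tubulin genes, and in H1792 the medians of these lists are 0.01 and 0.11.

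Each tubulin gene called in both lines was compared with all other tested genes by the Pearson correlation of log2 CPM over 14 libraries, after the mean of each line was subtracted. These correlations share libraries and treatment and are descriptions only. TUBA1C was most like HJURP, a chaperone of centromeric histone (r = 0.995). TUBA1A was most like PDIA6, a protein disulfide isomerase (r = 0.965), TUBA4A like the RNA helicase gene DDX56 (r = 0.952) and TUBG1 like ANAPC15, a subunit of the anaphase-promoting complex (r = 0.950). Among the tubulin genes themselves, by the same measure, TUBA1B and TUBA1C (r = 0.99), TUBB2A and TUBB2B (r = 0.98) and TUBA4A and TUBG1 (r = 0.95) were closest, the first 2 pairs being near copies. TUBA1A and TUBA4A were the least alike (r = -0.59). Without A549 DMSO replicate 1 the 7 positive correlations named here were from 0.95 to 1.00, and that of TUBA1A and TUBA4A was -0.56.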

How the data were processed

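The authors deposited raw counts of reads per gene symbol, 1 table per line, without normalization. The submitters' processing notes name STAR, HTSeq, hg19 and GRCh37, and counting options are not given in the sources used here. In the H1792 table, 28 entries bearing dates in place of symbols (0.101% to 0.117% of counts) were left out. Groups came from the sample labels. Libraries of 1 group differed by more than sampling noise (chi-square per gene 3.34 to 49.3), and each was counted as a replicate. This statistic cannot tell biological from technical spread. The 10 tubulin genes and all gene lists were chosen with earlier results of these data known.

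R 4.3.3 was used with edgeR 4.0.16 and, as an alternative, DESeq2 1.42.0. Low-count genes were dropped with filterByExpr and libraries scaled with TMM. Tests were edgeR's quasi-likelihood F-tests, adjusted by Benjamini-Hochberg over all tested genes, with calls at an FDR below 0.01. DESeq2, which the study used, was thus an alternative. AMG900 was compared with DMSO within each line, and the difference between lines was tested as an interaction in 1 fit over 14 libraries. CPM is the count per 1000000 counts of a TMM-scaled library, within each line unless stated. Log2 CPM for correlations used a prior count of 2 in edgeR. The SE was the log2 fold change divided by the square root of its F statistic.

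Of 26786 names, 23617 were matched to GENCODE v44lift37 (22367 by current and 1250 by older symbol) for positions, transcript length and GC content, and 97.1% of genes tested in A549 and 95.7% in H1792 had GC content. All 10 tubulin genes and TUBB4B matched a RefSeq promoter window. Named were all tubulin genes, the called genes with the highest and lowest log2 fold change of each further list, and the gene most like each tubulin gene called in both lines. Each fit was first tested on simulated counts. Alternatives were DESeq2, its size factors, scaling by totals, no filter, a minimum of 10 counts per library, blocking on replicate number, an FDR below 0.05, a 2-fold minimum, each library left out, and a GC correction (a spline with 5 degrees of freedom per library).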

Additional observations from a re-analysis of the deposited data

Results flagged for a closer look

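Results were singled out where 1 library lay far from the others of its group of 4 (Dixon's test), and where the AMG900 effect differed between the lines in the interaction test. Of 20 sets of 4 A549 libraries examined, 8 had such a library, while chance gives about 1 in 20, and the sets share libraries and near-identical genes, so they are not independent.

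DMSO replicate 1, the library with the fewest counts, was the one apart in 5 of the 8. It held the lowest values of its group for TUBA1B (1763 CPM) and TUBG1 (160 CPM) and the highest for TUBB2A (66.0 CPM), TUBB2B (52.9 CPM) and TUBB6 (172 CPM). AMG900 replicate 4 was highest of its group for TUBB2A (36.8 CPM) and TUBB2B (30.8 CPM), which are near copies, and AMG900 replicate 1 was highest for TUBB (19.0 CPM). The part of depth in these values was not tested.

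The AMG900 effect in H1792 minus that in A549, in log2 units, was 1.72 for TUBA1B, 1.22 for TUBA1C, 1.02 for TUBG1, 1.00 for TUBB, 0.91 for TUBA4A, 0.73 for TUBB3 and -0.45 for TUBA1A. Line, medium and depth cannot be told apart in these differences.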

How the results depend on the processing

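Member by member, 713 of 780 values under the alternatives kept their direction and side of the threshold, 41 lost a call, 22 gained one and 4 changed sign without a call. The 6 interaction calls higher in H1792 were 6 in every fit except at a 2-fold minimum (3, against 395 of all 14769 genes). The 1 interaction call lower in H1792, TUBA1A, was 0 with DESeq2, with DESeq2 size factors, with total counts, with the replicate block and at a 2-fold minimum. At a 2-fold minimum, 3 genes were lower in A549 (8 without it), 0 higher and 0 lower in H1792 (3 and 1), and 1 lower in H1792 DMSO than in A549 DMSO (5). Over all genes, 769 of 13174 were lower in A549, and 476 higher and 781 lower of 15017 in H1792. Between the DMSO groups, 2810 of 14769 were lower in H1792. With the GC correction, 3 genes were lower in H1792, as were 3462 of all 15017 genes. TUBA1B (-0.06), TUBB3 (-0.07) and TUBB6 (-0.12) changed sign there. The cause of these shifts was not tested.

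Leaving out 1 library at a time, genes lower in A549 numbered 6 to 9, genes higher in H1792 2 to 5, genes lower in H1792 1 to 3, and interaction calls lower in H1792 0 to 1. Over all genes the same counts were 1846 to 2978, 1382 to 3047, 1853 to 3656 and 965 to 1918. Genes tested numbered 13232 to 13489 in A549, 15139 to 15413 in H1792 and 14644 to 15016 in the interaction. TUBB6 in A549 ranged from -0.14 to 0.01, the latter without DMSO replicate 1.

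Replicate numbers did not pair the libraries: deviations of same-numbered libraries correlated between -0.06 and 0.04, and 0 of 8 A549 and 2 of 6 H1792 libraries correlated best with their own number across treatments. With the replicate block, 8 genes were lower in A549, and 2 were higher and 1 lower in H1792, where TUBA1C lost its call (adjusted p = 0.0105). Over all genes, 1984 of 13174 were lower in A549 with the block, and 2170 higher and 2618 lower of 15017 in H1792. Depth limits the A549 values of TUBB and TUBB2B most, with 131 to 728 and 222 to 498 counts per library.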
